A study of Mus musculus with 34 samples.

Results

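The transcripts described here were those most strongly reduced in mouse gastrocnemius muscle after its nerve was cut, among rows of middle abundance. Rows were chosen by their values in the vehicle groups of a table of TPM (abundance scaled for transcript length and library total). A row was taken when its mean over the innervated control legs was at least 10 and under 1000 TPM and its mean over the denervated legs of vehicle-treated mice was at most 1/3 of that. The rule found 179 of 23737 rows (0.754%), out of 6873 rows with a control mean in that range. The loss on denervation was therefore fixed by the choice of rows and is described without a test. The rule did not use the denervated legs in which class IIa histone deacetylases were inhibited or Hdac4 was deleted. How far the transcripts came back there is measured between the same vehicle means that chose the rows, so that measure is not independent of the choice.

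All mice were female and 6 months old at surgery, when the left sciatic nerve was cut, and dosing by gavage 2 times a day began the same day and ran for 2 weeks. WT_VEH_CON were 8 libraries of contralateral, innervated legs of wild-type mice on vehicle, WT_VEH_DEN 7 libraries of denervated legs of wild-type mice on vehicle, WT_NVS-HD1_DEN 10 libraries of denervated legs of wild-type mice on 10 mg/kg NVS-HD1, which inhibits the class IIa histone deacetylases, and iRKO_VEH_DEN 9 libraries of denervated legs of vehicle-treated mice with an induced deletion of Hdac4. The deletion removes exon 5 in the whole body, by a tamoxifen-activated Cre expressed from the ROSA26 locus, so it is not limited to muscle fibres. Tamoxifen was given at 40 mg/kg on 7 days at 4 months of age, with surgery 6 weeks afterwards. The labels give no strain and do not say whether the wild-type mice carried Cre or received tamoxifen, and no innervated legs of NVS-HD1 or iRKO mice were analysed here. The control of a denervated leg is thus the other leg of a mouse on vehicle, and an effect of either intervention that also occurs in innervated muscle cannot be told apart from a weaker response to denervation.

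Nerve activity keeps up the expression of much of the contractile and metabolic programme of a muscle fibre, and a fibre cut off from its nerve loses mass and changes that programme. HDAC4 is a class IIa histone deacetylase that accumulates in denervated fibres, binds MEF2 transcription factors and other regulators, and represses their targets. Class IIa enzymes have little deacetylase activity of their own and act largely by recruiting other repressors, so that an inhibitor of their catalytic pocket and a loss of the HDAC4 protein are different interventions.

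The transcripts cannot be named. Of 10 symbols of abundant skeletal muscle fibre genes, 3 labelled rows at 0 TPM in all 34 libraries and 8 labelled rows with a mean under 10 TPM, and the highest of the 10 means was 49.1 TPM, where the most abundant row of the table had a mean of 51113 TPM. Symbols and values are therefore out of step, the labelled tissue cannot be checked against its markers, and no gene, protein or sequence is given for any row. Members are called M1 to M179 by their rank in control mean, with their row number in the table, counted from 1 below the header, at first use. In bulk muscle, fewer cells of a type and less RNA per cell cannot be told apart.

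In control legs the 179 members together held 21957 ± 1088 TPM (SD, n = 8; 19488 to 23062), which was 2.20% of all TPM. In WT_VEH_DEN they held 4590 ± 417 TPM (SD, n = 7; 3930 to 5030), or 0.459%. The summed level was 11723 ± 1261 TPM in WT_NVS-HD1_DEN (SD, n = 10; 9874 to 13445) and 13448 ± 3267 TPM in iRKO_VEH_DEN (SD, n = 9; 8557 to 18571), that is 1.17% and 1.34% of all TPM. Every library of either intervention group lay above every WT_VEH_DEN library and below every control library. In WT_VEH_DEN, 0 members reached their control mean in any library, whereas 5 to 27 did so in the NVS-HD1 libraries and 3 to 60 in the iRKO libraries. The number of members at or below 1/3 of their control mean was 150 to 176 per WT_VEH_DEN library, 27 to 67 per NVS-HD1 library and 24 to 76 per iRKO library. The WT_VEH_DEN counts are largely fixed by the rule. Control libraries themselves had 0 to 18 such members, in part rows that were high in 1 control library alone (below). Such rows can also enter the counts of the intervention groups.

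**Figure D1:**
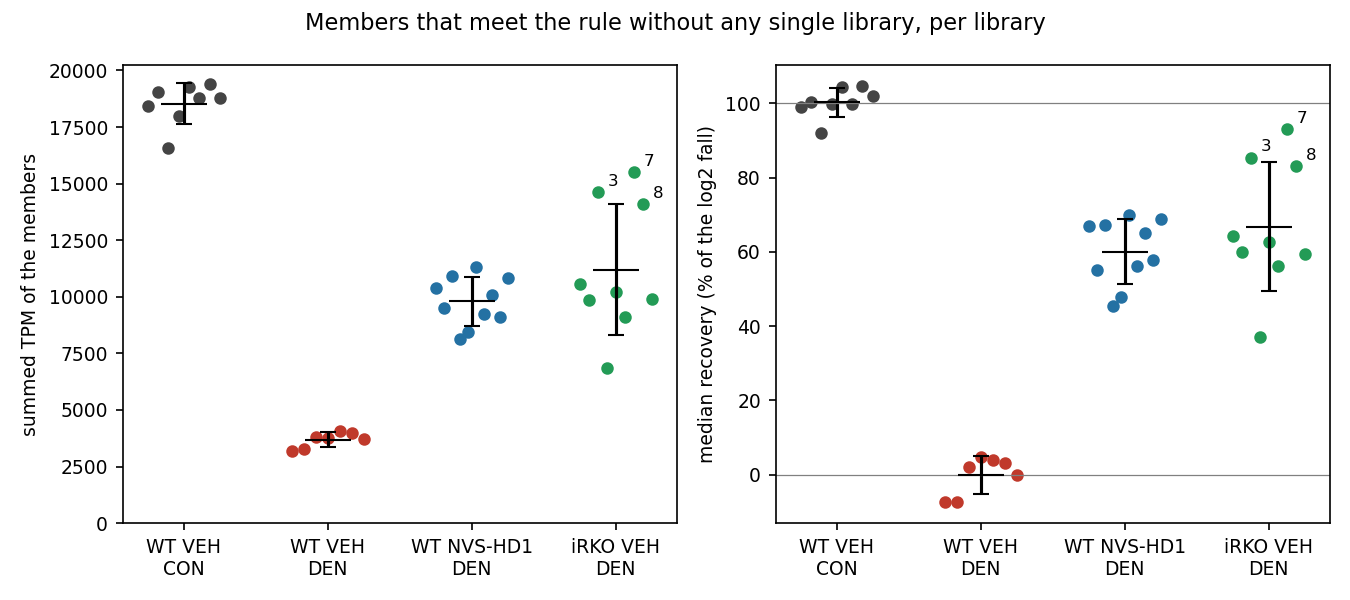
Left, summed TPM of the 147 members that meet the rule without any single library, 1 point per library; right, the median over these members of recovery, in percent of the log2 difference between WT_VEH_DEN (0) and WT_VEH_CON (100). Bars show mean and SD; iRKO_VEH_DEN replicates 3, 7 and 8, numbered in both panels, stand above the other 6 iRKO libraries, and all libraries of both intervention groups lie between the vehicle groups in summed TPM.

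Not every member rested on the control group as a whole. When each control or WT_VEH_DEN library was left out in turn, 147 of the 179 met the rule every time and 32 did not. Of these 32, 12 met the rule through high values in WT_VEH_CON replicate 4, where they had 62.0 to 389 TPM. For them the other 7 control libraries stayed at or below 4.95 TPM and every denervated library of any group at or below 7.53 TPM. These 12 were at least 10 times higher in WT_VEH_CON replicate 4 than in the next control library. Among all rows of the table, 65 were so raised in WT_VEH_CON replicate 4, with a sum of 3007 TPM there and 14.2 to 42.5 TPM elsewhere, the highest of the others being iRKO_VEH_DEN replicate 7, against 0 to 4 such rows in any other library of any group. What raised them was not tested. The other 20 left the rule with 1 to 7 of the 15 libraries, among them M1 (row 10584), whose control mean of 992 ± 168 TPM (SD, n = 8) is just under the upper limit. Some of these 20 also rested on 1 library, such as M174 (row 10910) on WT_VEH_CON replicate 4, where it had 15.3 TPM. Results below are for all members unless the 147 are named, and values for the 147 stand beside some of them only.

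**Figure D2:**
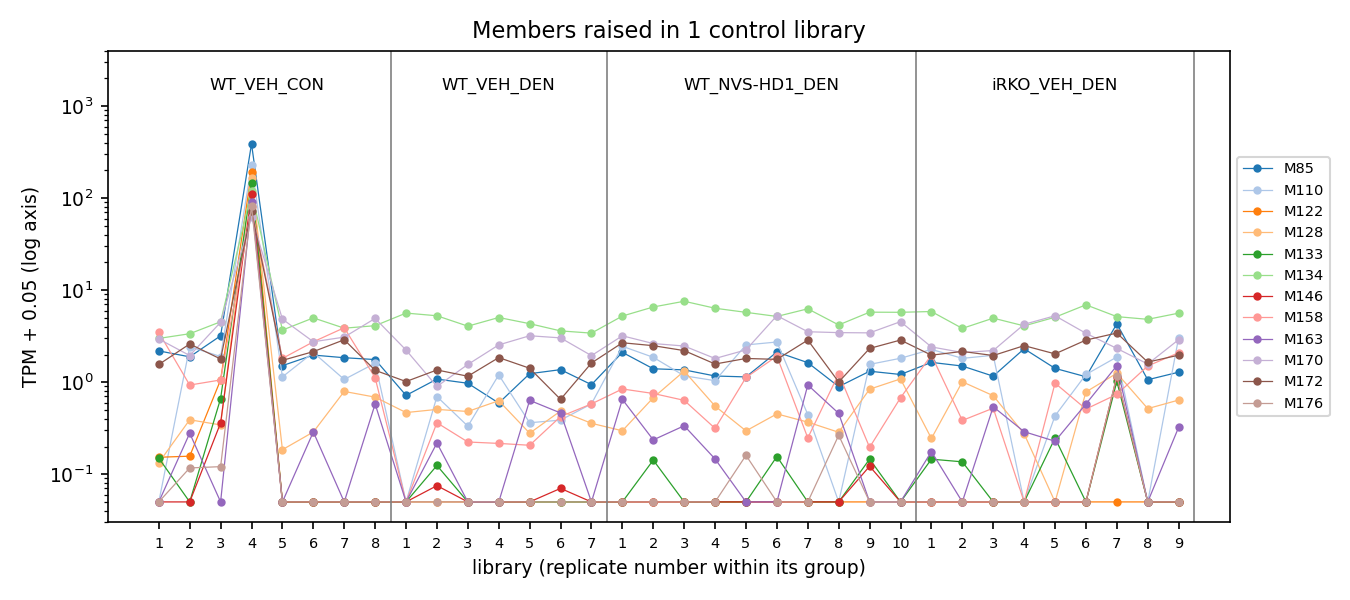
TPM + 0.05 (log axis) of the 12 members raised in 1 control library, in all 34 libraries by group and replicate number, each line 1 member. The single peak, 62.0 to 389 TPM, is WT_VEH_CON replicate 4, and no other control library exceeds 4.95 TPM.

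The values at the edges of the rule were close to each other. M154 (row 8314) and M32 (row 17857) were the last inside the limit on loss, at 33.3% and 33.2% of control in WT_VEH_DEN, and rows 15120 and 8872 the first outside, at 33.5% each. M179 (row 21738) and M178 (row 18905) had control means of 10.0 TPM, just above the lower limit. The nearest rows below it, 6580 and 11485, had 9.73 ± 27.4 and 9.24 ± 26.02 TPM (SD, n = 8), a spread larger than the mean. At the upper limit M1 and M2 (row 7242), at 992 and 915 TPM, were inside, and row 4916, at 1700 TPM in control and 365 TPM in WT_VEH_DEN, and row 15330, at 3747 and 497 TPM, were outside.

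Recovery was expressed for each member as the distance from the WT_VEH_DEN mean in percent of the distance between the WT_VEH_DEN and WT_VEH_CON means, on the log2(TPM + 1) scale. The libraries of both vehicle groups also chose the members, so recovery is a description and not independent of the rule. The median over the 179 members was 58.5% in WT_NVS-HD1_DEN (quartiles 42.0% and 75.7%) and 65.4% in iRKO_VEH_DEN (46.5% and 81.5%). These percentages depend on the scale: computed on TPM, the median recoveries were lower, 39.0% in WT_NVS-HD1_DEN and 47.7% in iRKO_VEH_DEN. In TPM, the median member stood at 21.2% of its control mean in WT_VEH_DEN, 52.6% in WT_NVS-HD1_DEN and 58.8% in iRKO_VEH_DEN. Single members ranged from -36.0% to 143% recovery with NVS-HD1 and from -46.7% to 144% in the knockout, so the medians stand for a set that runs from members below the denervated level to members above control. Of the 179, 5 lay below the WT_VEH_DEN level with NVS-HD1, 18 recovered by under 25%, 42 by 25% to under 50%, 69 by 50% to under 75%, 36 by 75% to under 100% and 9 reached control or more. In iRKO_VEH_DEN the same classes held 4, 17, 29, 67, 47 and 15 members. With the 147 members that rest on no single library, the medians were 59.3% and 66.9%.

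**Figure D3:**
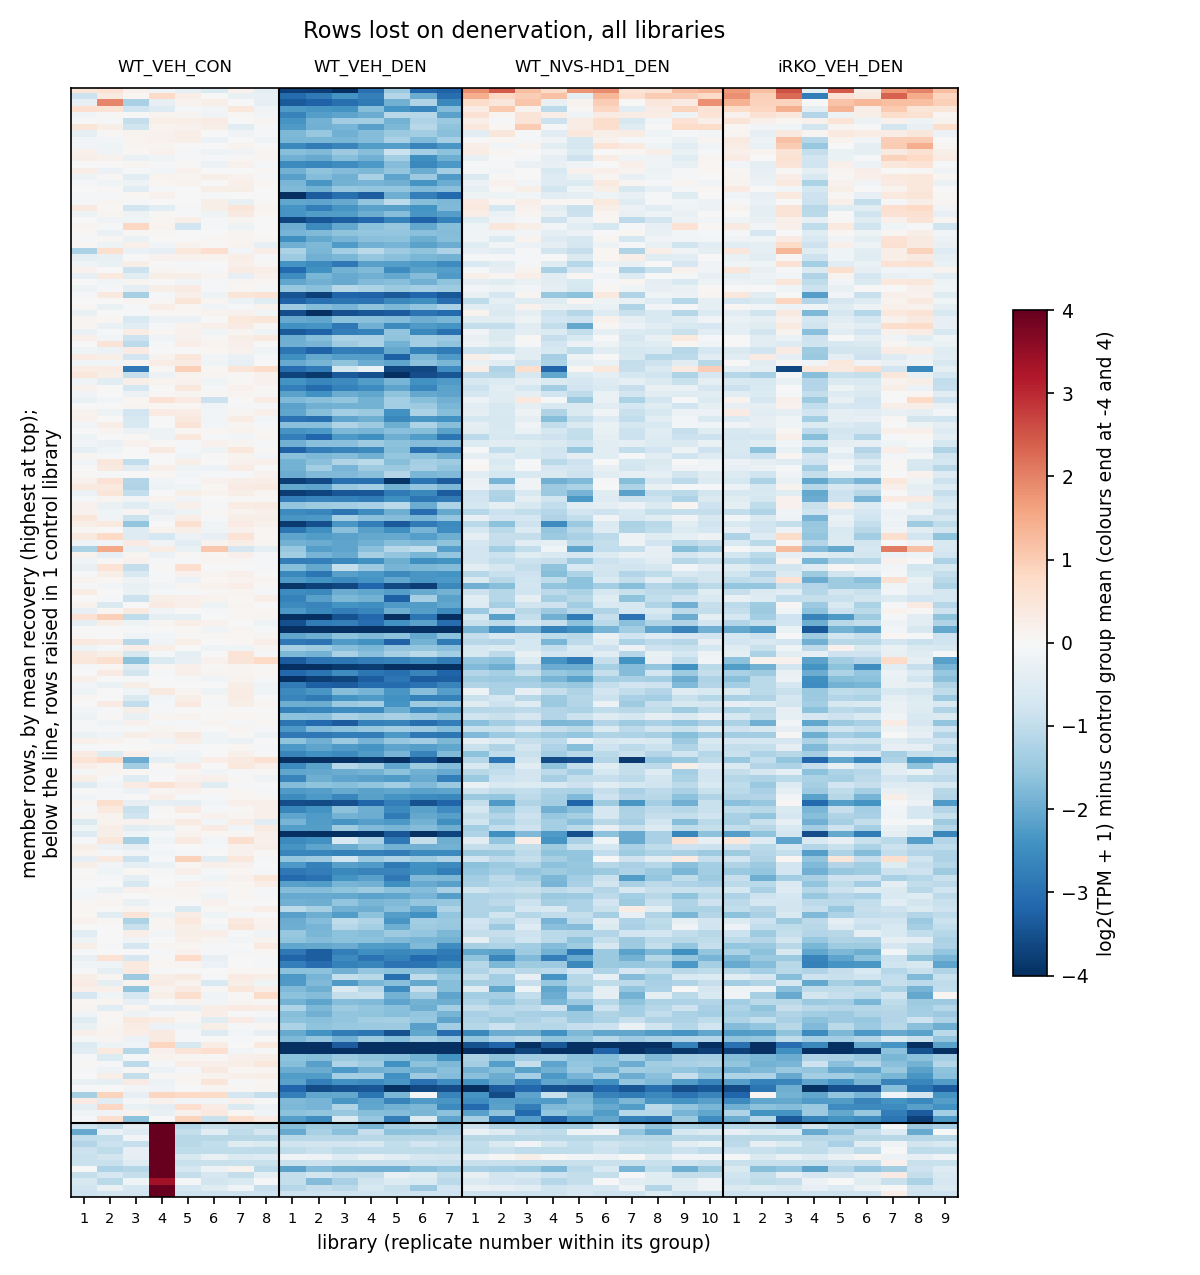
Each line of the map is 1 of the 179 members, each column 1 of the 34 libraries, and the colour is log2(TPM + 1) minus the control group mean, ending at -4 and 4. Lines are ordered by the mean of both recoveries, highest at the top, and the 12 members raised in WT_VEH_CON replicate 4 are set apart at the bottom. Above that line the WT_VEH_DEN block is mostly blue, with single values near control, and the intervention blocks grade from red at the top to blue near the bottom.

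A pair of comparisons asked how many members lay above the denervated level. Both use the WT_VEH_DEN libraries that chose the members, and a row chosen for low values in those libraries tends to look higher in any other group, so the counts and p-values describe the members and stand beside the share of all 13108 rows tested (at least 1 TPM in at least 7 libraries). Of the 179 members 173 entered the test and 6 did not, all 6 among the 12 of WT_VEH_CON replicate 4. With NVS-HD1, 148 members were higher than in WT_VEH_DEN (limma, adjusted p under 0.05), where 18.5% of all rows were called higher, and the median log2 difference was 1.23 over the members and 0.03 over all rows. In the knockout 151 were higher, where 15.3% of all rows were, with medians of 1.39 and -0.03. By limma 0 members were lower in either comparison, where 21.2% and 25.9% of all rows were lower, and at an unadjusted p under 0.05 there were 0 with NVS-HD1 and 1 in the knockout; after quantile normalization 1 member was called lower in the knockout. Called in both were 147 members, in NVS-HD1 alone 1, in the knockout alone 4, and in neither 21. These comparisons share their reference libraries, so the 147 is a count and not evidence that the interventions act alike. Among the 147 members that rest on no single library, 132 and 133 were called higher.

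The libraries also carry a number in their titles, from 20 to 29, whose meaning the labels do not give, and it runs almost parallel to the groups. WT_VEH_CON libraries have the numbers 20, 28 and 29, of which 20 is found in control replicates 3 and 4 alone. WT_VEH_DEN libraries have the numbers 28 and 29, NVS-HD1 libraries 26 and 27 apart from replicate 4, which has 28, and iRKO libraries 25, 26 and 27. With this number as a term in the limma fit, 56 members were called higher with NVS-HD1, where 1.44% of all rows were, and 27 in the knockout, where 0.542% were. The median log2 difference of the members was 0.96 in both, against -0.13 and -0.18 over all rows. Of 63 log2 differences between denervated groups, taken over the members described by name, 27 lost their call under the term and 9 changed sign. The median standard error over all rows rose from 0.114 to 0.251 and from 0.116 to 0.289 under the term, which links the interventions to WT_VEH_DEN through WT_NVS-HD1_DEN replicate 4 alone. The iRKO libraries had no number in common with WT_VEH_DEN or WT_VEH_CON, so number and knockout cannot be told apart within any number.

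The ranges over libraries give a count with no test. For 116 of the 179 members every NVS-HD1 library lay above every WT_VEH_DEN library, which held for 4.74% of all rows tested, and for 115 every iRKO library did (4.06%). Both counts use the WT_VEH_DEN libraries that chose the members, which favours members over other rows. Every control library lay above every WT_VEH_DEN library for 157 members (7.38% of all rows), a count that the rule largely fixes.

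The shortfall from control was counted in the same way, with the control libraries that chose the members. In WT_NVS-HD1_DEN 131 members stayed lower than control (limma, adjusted p under 0.05), where 11% of all rows were lower, and in iRKO_VEH_DEN 116 did, where 11.1% were. The median log2 difference from control was -0.88 and -0.74 over the members and 0.18 and 0.12 over all rows. Median-of-ratios scaling moved the medians over all rows to 0.0029 and 0.00070 and those of the members to -1.09 and -0.87, so that relative to the median row the shortfall was -1.06 and -0.86 as deposited and -1.09 and -0.87 after scaling. Every control library lay above every NVS-HD1 library for 72 members (2.7% of all rows) and above every iRKO library for 44 (2.27%). Without iRKO_VEH_DEN replicates 3, 7 and 8 the count in the knockout was 131, where 9.64% of all rows were lower. Those 3 had the highest median recovery of the iRKO libraries (below), so leaving them out tends to raise this count. Under the title number term the counts were 105, where 8.7% of all rows were lower, and 87, where 7.83% were.

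Among the most abundant members the return was partial to nearly full. M1 had 700 to 1228 TPM in control (median 982), 153 to 286 in WT_VEH_DEN (182), 313 to 558 with NVS-HD1 (464) and 388 to 726 in the knockout (509). On the log2 scale both interventions left it near the middle of its loss, at recoveries of 52.1% and 57.5%, and in TPM it regained less than that. M2 recovered less with NVS-HD1, from 276 ± 33.2 TPM (SD, n = 7) in WT_VEH_DEN to 437 ± 68.5 TPM (SD, n = 10), a log2 difference of 0.65 (SE 0.094; limma, adjusted p = 9.07e-07), and it stood at 511 ± 78.4 TPM (SD, n = 9) in the knockout. Once the title number entered the fit, neither M1 nor M2 was called in either comparison (limma, adjusted p 0.0981 to 0.292).

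M3 (row 6521) came back further. Its values were 701 to 1030.3 TPM in control (median 846), 81.2 to 278 in WT_VEH_DEN (122), 429 to 754 with NVS-HD1 (570) and 261 to 1032 in the knockout (616). All NVS-HD1 libraries exceeded all WT_VEH_DEN libraries, and iRKO replicate 4, at 261 TPM, was the single iRKO library inside the denervated range. The log2 differences from WT_VEH_DEN were 2.18 (SE 0.207; limma, adjusted p = 3.18e-10) and 2.30 (SE 0.211; limma, adjusted p = 1.33e-10), and recoveries were 79.4% and 83.7%. With the title number in the fit the difference with NVS-HD1, 2.02, was still called (limma, adjusted p = 0.014), and the one in the knockout, 1.96, was not (limma, adjusted p = 0.0535). M4 (row 7495), at 765 ± 54.9 TPM in control (SD, n = 8) and 142 ± 26.1 in WT_VEH_DEN (SD, n = 7), reached 349 ± 31.3 with NVS-HD1 (SD, n = 10) and 413 ± 141 in the knockout (SD, n = 9). M5 (row 11572) reached 565 ± 125 and 648 ± 104 TPM of the 705 ± 81.4 TPM in control, and in the knockout its difference from control was -0.13 on the log2 scale (SE 0.122; limma, adjusted p = 0.41).

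**Figure D4:**
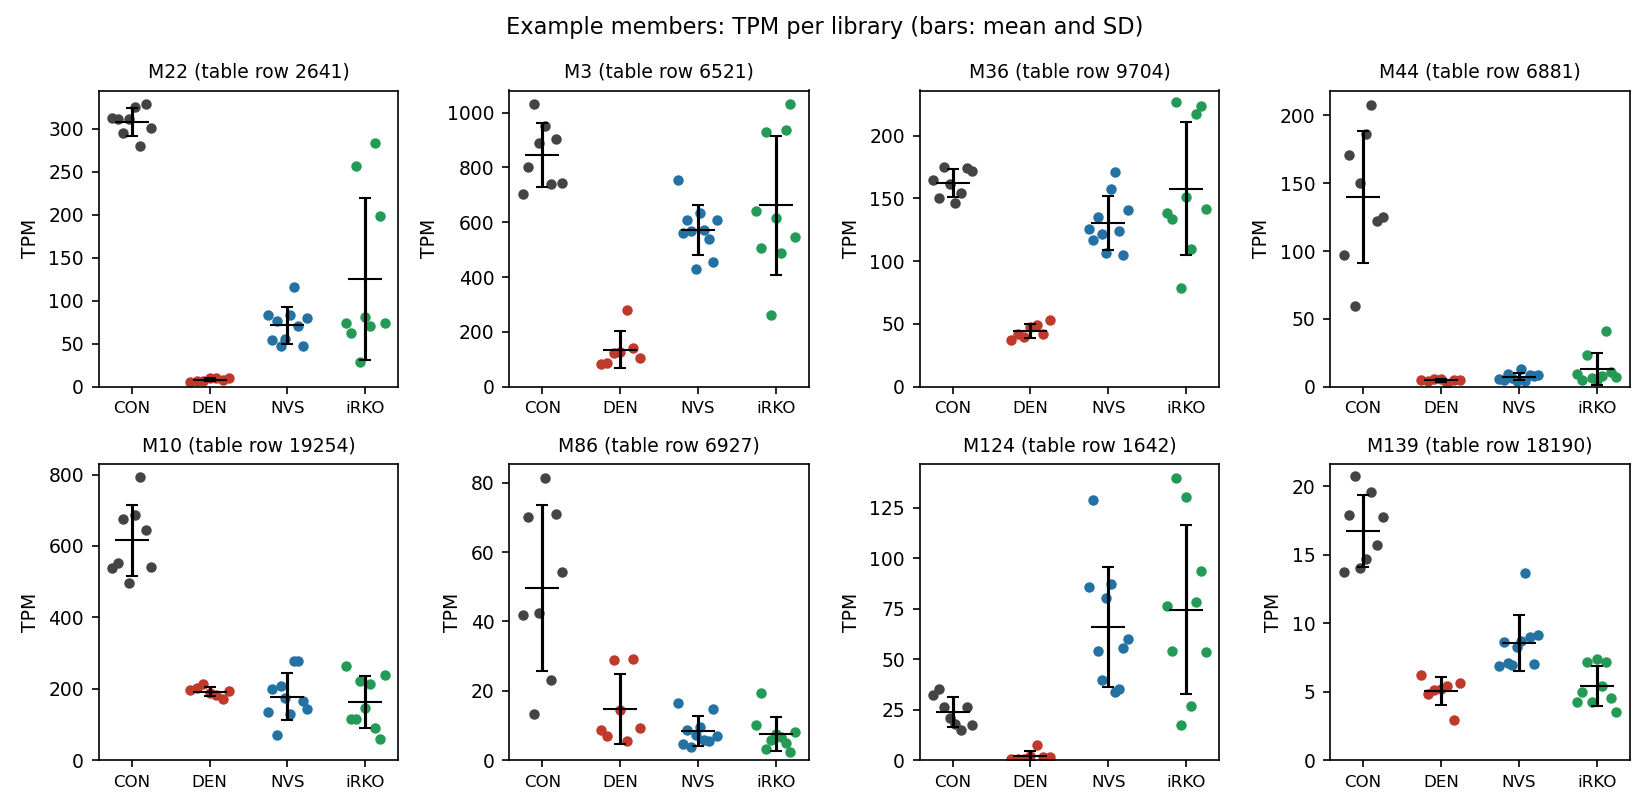
TPM per library of 8 members in WT_VEH_CON (CON), WT_VEH_DEN (DEN), WT_NVS-HD1_DEN (NVS) and iRKO_VEH_DEN (iRKO), with mean and SD, each panel on its own linear axis from 0. M36, M3 and M22 return in part, M36 the furthest of them on the log2 scale. M44, M10 and M86 stay near the denervated level, M124 passes control, and M139 stands higher under NVS-HD1 than under the deletion.

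Of the members that rest on no single library, M22 (row 2641) was the most reduced. It had 279 to 328 TPM in control (median 311), 5.35 to 10.6 in WT_VEH_DEN (7.72), 46.9 to 116 with NVS-HD1 (73.5) and 28.7 to 283 in the knockout (74.2). Every intervention library lay above the denervated range, and a single one, iRKO replicate 7 at 283 TPM, reached the control range. Replicates 3 and 8, at 256 and 199 TPM, came next, and the other 6 iRKO libraries had at most 81.5 TPM. The 3 members that followed M22 most closely over the 19 intervention libraries, by Pearson's r of log2(TPM + 1) around the group means, were M36 (row 9704; r = 0.94), M4 (0.94) and M55 (row 6831; 0.93), all of which were also high in those 3 libraries. The member with the lowest ratio of all, M122 (row 6581), was at 0 TPM in all 19 and has no such value.

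M36 came back most of the way, at recoveries of 82.4% with NVS-HD1 and 93.9% in the knockout. Control libraries had 146 to 175 TPM (median 163), WT_VEH_DEN 37.5 to 52.8 (42.2), NVS-HD1 105 to 171 (125) and iRKO 79.0 to 227 (142). No intervention library fell into the denervated range, and the NVS-HD1 and control ranges overlapped. The log2 differences from WT_VEH_DEN were 1.53 (SE 0.144; limma, adjusted p = 2.76e-10) and 1.74 (SE 0.147; limma, adjusted p = 2.31e-11).

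A further pair of members with large rises reached the control level in the knockout, in mean TPM over all iRKO libraries. M18 (row 14042) had 343 to 412 TPM in control (median 358), 19.2 to 93.1 in WT_VEH_DEN (41.7), 260 to 365 with NVS-HD1 (316) and 203 to 505 in the knockout (376). Its log2 differences of 2.85 (SE 0.181; limma, adjusted p = 9.42e-14) and 3.06 (SE 0.185; limma, adjusted p = 2.16e-14) kept their calls with the title number as a term, at 2.49 (limma, adjusted p = 0.00126) and 2.60 (limma, adjusted p = 0.00804). M38 (row 5928) went from 16.5 ± 4.40 TPM in WT_VEH_DEN (SD, n = 7) to 119 ± 29.1 with NVS-HD1 (SD, n = 10) and 152 ± 34.0 in the knockout (SD, n = 9), where control was 152 ± 15.1 (SD, n = 8). Its log2 differences were 2.78 (SE 0.15; limma, adjusted p = 2.11e-15) and 3.13 (SE 0.153; limma, adjusted p = 2e-16), and under the title number term 2.22 and 2.46 (limma, adjusted p = 0.000909 and 0.00211). In both members iRKO replicates 3, 7 and 8 were the highest, at 476, 475 and 505 TPM for M18 and 175, 174 and 214 TPM for M38. The other iRKO libraries had 203 to 380 TPM for M18 and 107 to 162 TPM for M38.

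Some members passed control. At 100% or more in both groups were 7 of the 179, and 6 of the 147: M39 (row 8066), M59 (row 22962), M66 (row 14591), M118 (row 20354), M124 (row 1642) and M141 (row 13548). M124 had 15.0 to 35.1 TPM in control (median 23.5), 0.448 to 7.55 in WT_VEH_DEN (1.56), 34.0 to 129 with NVS-HD1 (57.9) and 17.5 to 140 in the knockout (76.6). With NVS-HD1, 9 of 10 libraries lay above the highest control library, and in the knockout 7 of 9, all but replicates 4 and 6. Against control the log2 difference was 1.36 with NVS-HD1 (SE 0.335; limma, adjusted p = 0.000881) and 1.41 in the knockout (SE 0.343; limma, adjusted p = 0.00105). It was the single member called above control with NVS-HD1, where 41.9% of all rows were called higher than control. In the knockout 3 members were, against 34.3% of all rows: M124, M118 at 42.3 ± 15.7 TPM (SD, n = 9) and 25.4 ± 9.15 in control (SD, n = 8), and M149 (row 8585). Under the title number term 0 members were called above control in either group.

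M118 and M149 differed in what carried them. M118 had 13.3 to 38.7 TPM in control (median 22.7), 3.08 to 6.74 in WT_VEH_DEN (4.02), 11.2 to 50.2 with NVS-HD1 (30.03) and 18.2 to 66.2 in the knockout (40.3), with a log2 difference of 0.70 between knockout and control (SE 0.25; limma, adjusted p = 0.022). M149 had 3.62 to 42.8 TPM in control with a median of 9.17, since WT_VEH_CON replicate 2 alone stood at 42.8, and it left the rule without that library. Its values were 0.102 to 3.96 TPM in WT_VEH_DEN, 8.33 to 39.1 with NVS-HD1 and 10.5 to 28.7 in the knockout. M59 stood at 113 ± 19.9 TPM with NVS-HD1 (SD, n = 10) and 110 ± 34.5 in the knockout (SD, n = 9) against 92.9 ± 7.07 in control (SD, n = 8), differences from control of 0.26 and 0.16 on the log2 scale that were not called (limma, adjusted p = 0.259 and 0.545). M141 had 0.963 to 6.44 TPM in WT_VEH_DEN and 12.1 to 45.3 with NVS-HD1, but in the knockout it ran from 1.48 to 85.6, so that a denervated value and the highest of all occurred in the same group.

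At the other end were members whose level stayed where denervation had put it. Under 25% recovery in both groups was seen in 17 of the 179 members and in 11 of the 147: M10 (row 19254), M12 (row 16506), M34 (row 13239), M44 (row 6881), M58 (row 979), M64 (row 6045), M86 (row 6927), M93 (row 4033), M107 (row 16353), M142 (row 16535) and M160 (row 17784). Of these 11, M44 was called higher than WT_VEH_DEN, in the knockout, and the other 10 in neither comparison. A p above the threshold does not show that these rows were unmoved, but several had narrow ranges. M12, M93 and M107 had standard errors of 0.119 to 0.154 for their log2 differences from WT_VEH_DEN, which ran from -0.15 to 0.32.

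M10 was the most abundant of them. Control libraries had 497 to 793 TPM (median 598), WT_VEH_DEN 171 to 213 (193), NVS-HD1 69.7 to 278 (170) and iRKO 59.1 to 264 (147). The denervated vehicle legs were tightly grouped, while both intervention groups spread to either side of them, with 59.1, 88.8 and 116 TPM in iRKO replicates 8, 7 and 3. The log2 differences from WT_VEH_DEN were -0.21 (SE 0.238; limma, adjusted p = 0.517) and -0.39 (SE 0.244; limma, adjusted p = 0.215), and without those 3 libraries the second was 0.0050. Its correlation with the summed level of the other members over the 19 intervention libraries, around the group means, was -0.61, the lowest of the 147, and -0.34 without those 3 libraries, where M58 was lowest at -0.40.

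M12 and M34 stayed low from high control levels. M12 had 373 to 684 TPM in control (median 485), 60.3 to 109 in WT_VEH_DEN (86.1), 74.2 to 163 with NVS-HD1 (105) and 73.7 to 135 in the knockout (93.6), recoveries of 12.6% and 5.78%. M34 had 150 to 181 TPM in control (median 168), 9.86 to 17.4 in WT_VEH_DEN (13.5), 9.56 to 19.9 with NVS-HD1 (14.8) and 9.74 to 50.8 in the knockout (15.7). The NVS-HD1 range of M34 nearly repeated the denervated one, while iRKO replicates 7 and 3, at 50.8 and 42.4 TPM, stood apart from an iRKO median of 15.7. For M34 the log2 differences were 0.15 (SE 0.207; limma, adjusted p = 0.602) and 0.50 (SE 0.211; limma, adjusted p = 0.0567).

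M44 and M72 (row 978) were reduced to a few percent of control and recovered little. M44 had 59.4 to 208 TPM in control (median 137), 2.30 to 5.88 in WT_VEH_DEN (4.82), 4.18 to 13.1 with NVS-HD1 (7.18) and 4.83 to 41.0 in the knockout (8.02). All intervention values were below the lowest control value. The log2 difference was 0.54 with NVS-HD1 (SE 0.298; limma, adjusted p = 0.148) and 1.02 in the knockout (SE 0.305; limma, adjusted p = 0.00711), the latter 0.49 (limma, adjusted p = 0.106) without iRKO replicates 3, 7 and 8. M72 went from 66.1 ± 24.7 TPM in control (SD, n = 8) to 2.19 ± 1.58 in WT_VEH_DEN (SD, n = 7), and stood at 3.84 ± 2.23 with NVS-HD1 (SD, n = 10) and 7.51 ± 5.08 in the knockout (SD, n = 9), called in the knockout (log2 1.17, SE 0.39; limma, adjusted p = 0.015) but not with a pseudocount of 0.1 (limma, adjusted p = 0.0615). With the title number in the fit neither was called in the knockout, M44 at 0.79 (limma, adjusted p = 0.569) and M72 at 1.62 (limma, adjusted p = 0.322).

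M86 had the lowest recoveries, -36.0% and -46.7%. Its control libraries were widely spread, from 13.3 to 81.4 TPM (median 48.3), and so were those of WT_VEH_DEN, from 5.58 to 29.1 (9.22). With NVS-HD1 it had 3.71 to 16.6 TPM (7.14) and in the knockout 2.32 to 19.2 (6.81), and all 3 denervated groups overlapped. The log2 difference in the knockout, -0.81 (SE 0.371; limma, adjusted p = 0.0786), passed the threshold without iRKO replicate 2 (-0.99; limma, adjusted p = 0.0269), without WT_VEH_DEN replicate 5 (-0.98; limma, adjusted p = 0.0374) and after quantile normalization (-0.80; limma, adjusted p = 0.0483). M107 and M142 stood at 6.27 ± 1.52 and 3.44 ± 1.25 TPM in WT_VEH_DEN (SD, n = 7), at 6.20 ± 1.17 and 3.20 ± 1.62 with NVS-HD1 (SD, n = 10) and at 5.52 ± 1.01 and 2.83 ± 1.11 in the knockout (SD, n = 9), from 31.9 ± 5.24 and 15.9 ± 6.74 in control (SD, n = 8).

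Some other strongly reduced members recovered in between or better. M8 (row 1371), at 652 ± 276 TPM in control (SD, n = 8) and 28.3 ± 13.3 in WT_VEH_DEN (SD, n = 7), stood at 176 ± 113 with NVS-HD1 (SD, n = 10) and 162 ± 73.3 in the knockout (SD, n = 9). M62 (row 6919) went from 89.0 to 3.93 TPM and back to 27.5 and 31.9 TPM, M116 (row 18151) from 27.2 to 0.892 and back to 6.42 and 8.89 TPM, and M132 (row 57) from 18.7 to 0.806 and back to 13.3 and 15.0 TPM. M132 was reduced about as much as M62 and M116, yet its recoveries were 84.7% and 89.2%, where theirs were 59.7% and 61.5% and 47.6% and 52.9%. Members with a like loss thus differed in their return when the title number was not in the fit. With it, the log2 rises were 1.76 and 1.46 for M132, 2.09 and 2.03 for M62 and 1.52 and 1.35 for M116. Those of M8 were 0.74 and 0.21. Of these, only M62 with NVS-HD1 was called (limma, adjusted p = 0.0206), and M132 no longer stood above M62.

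Over bands of the 147 members the median recovery varied little. The 22 members with at most 10% of control left in WT_VEH_DEN had median recoveries of 56.5% and 62.6%, the 49 with 10% to 20% left 62.0% and 69.3%, and the 76 with more left 58.5% and 65.0%. In TPM the first band stood at a median of 7.38% of control in WT_VEH_DEN, 34.3% with NVS-HD1 and 45.1% in the knockout, so that an equal share of a larger log2 loss left these members lower. By abundance, the medians were 61.8% and 67.8% for 50 members at 100 TPM or more in control, 57.5% and 60.4% for 50 at 30 to under 100 TPM and 58.7% and 68.4% for 47 under 30 TPM.

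NVS-HD1 and the knockout were then compared directly, the one comparison that uses no library of the rule apart from the pooled estimate of spread. By limma 0 of 173 members were called different, where 0.0763% of all rows (10) were, and 19 members had an unadjusted p under 0.05, where 8.39% of all rows did. The log2 difference, NVS-HD1 minus knockout, ran from -0.97 to 0.58 with a median of -0.13, against 0.06 over all rows. The 95% interval lay within a 2-fold difference either way for 161 of 173 members and within 1.5-fold for 109, with a median half-width of 0.35, against 0.22 over all rows. A difference of about that size between the interventions was therefore not detectable for a typical member. Larger ones, out to -0.97 and 0.58, also went uncalled, since the calls were adjusted over all rows and these intervals were not. The absence of calls does not show that the interventions act alike. The mean of 131 of 173 members (75.7%) was lower under NVS-HD1, as was that of 27.9% of all rows. Without iRKO replicates 3, 7 and 8 this held for 58 of 173 members and 57.9% of all rows, and the median difference of the members was 0.07. Those 3 had the highest median recovery of the iRKO libraries, so leaving them out tends to lower the knockout means of the members. The change of direction is therefore a description and does not decide which intervention stood higher.

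**Figure D5:**
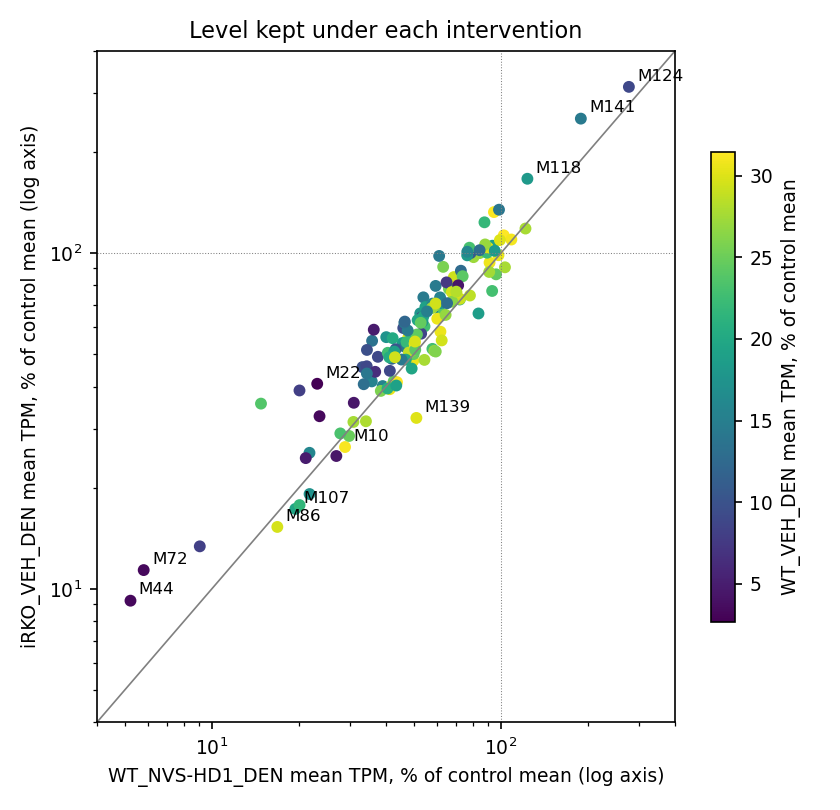
Mean level kept in iRKO_VEH_DEN against that in WT_NVS-HD1_DEN, both in percent of the control mean on log axes, 1 point for each of the 147 members that rest on no single library, coloured by the percent left in WT_VEH_DEN; the line marks equal levels and dotted lines mark 100%. Points run along the line from M44 at the lower left to M124 at the upper right, most of them a little above it, and M139 below it.

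The 3 members with the smallest p in that comparison had different directions. M139 (row 18190) had 13.7 to 20.7 TPM in control (median 16.7), 2.93 to 6.24 in WT_VEH_DEN (5.22), 6.89 to 13.7 with NVS-HD1 (8.44) and 3.53 to 7.41 in the knockout (4.95). Every NVS-HD1 library lay above every WT_VEH_DEN library, and the iRKO libraries overlapped both. The difference between the interventions was 0.58 on the log2 scale (95% interval 0.33 to 0.84; limma, adjusted p = 0.0564), and it passed the threshold without iRKO replicate 3, 4, 5 or 7 or WT_VEH_DEN replicate 6 (limma, adjusted p 0.0286 to 0.046). M88 (row 18630) had 18.9 to 38.7 TPM with NVS-HD1 (median 30.2) and 29.3 to 62.2 in the knockout (42.4), where control was 37.1 to 58.8, a difference of -0.52 (SE 0.129; limma, adjusted p = 0.14). M156 (row 12397) had 0.772 to 3.89 TPM with NVS-HD1 (2.28) and 2.11 to 11.2 in the knockout (3.43), a difference of -0.65 (SE 0.194; limma, adjusted p = 0.241). Titles with the numbers 26 and 27 hold libraries of both groups. By limma 0 of all rows were called within either number, so the 0 members called there say nothing about the members. Within 26, with 2 libraries a group, 72 members had an unadjusted p under 0.05, where 8.48% of all rows did, and the median difference was 0.35 over the members and 0.02 over all rows. Within 27, with 7 against 2, 33 members did, where 6.19% of all rows did, and the medians were -0.26 and 0.11. The medians thus had opposite signs in the 2 numbers. Each number held 2 iRKO libraries, and most members varied together between libraries (below), so these counts give no order of the interventions.

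Members varied more between libraries of a group than other rows did. The median SD of log2(TPM + 1) was 0.33 over members and 0.21 over all rows tested in WT_NVS-HD1_DEN, and 0.44 against 0.24 in iRKO_VEH_DEN. Most members varied together. Over the 19 intervention libraries, around the group means, the correlation of a member with the summed level of the other members had a median of 0.74 over the 147, and 107 of them (72.8%) exceeded 0.5, where 4.38% of 12935 other rows did, whose median was -0.21. Without iRKO replicates 3, 7 and 8, over 16 libraries, the median was 0.62 and 97 members (66.0%) exceeded 0.5, where 10.4% of the other rows did, with a median of 0.07. These are descriptions: TPM of 1 library add to a fixed total, so rows of a library are tied to each other.

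The median recovery per library shows where the spread lay. It was 58.3% ± 9.64 in WT_NVS-HD1_DEN (SD, n = 10), from 43.4% in replicate 5 to 70.0% in replicate 6. In iRKO_VEH_DEN it was 65.4% ± 16.9 (SD, n = 9), with 93.0% in replicate 7, 81.9% in replicate 3 and 78.4% in replicate 8, and 36.0% to 65.8% in the other 6, whose mean was 55.8% ± 10.4 (SD, n = 6). The lowest of all intervention libraries was thus an iRKO library, replicate 4, and so were the 3 highest. In those 3 libraries the 20 most abundant rows of the table held 40.9% to 41.8% of all TPM, above the 32.4% to 35.9% in the other iRKO libraries and the 32.3% to 36.8% with NVS-HD1, and nearer the 38.7% ± 2.35 in control (SD, n = 8) than the 28.5% ± 2.65 in WT_VEH_DEN (SD, n = 7). The part of that share in the result was not tested. Within title number 27, iRKO replicates 3 and 5 stood at 81.9% and 61.1% and the NVS-HD1 libraries at 43.4% to 70.0%, a range that includes replicate 5. Within 26, iRKO replicates 4 and 6 stood at 36.0% and 54.2% and NVS-HD1 replicates 1 and 3 at 64.8% and 66.7%. With 2 iRKO libraries in each number, no order of the interventions can be read from these values.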

How the data were processed

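Polyadenylated RNA of 34 gastrocnemius libraries was analysed. The authors deposited 1 table of TPM with 23737 rows, and the 34 columns used were matched to samples by title. The submitters' processing notes name STAR 2.4.5a and the mm10 build, and the tool that counted reads and its annotation are not given in these sources. Each library's TPM sum to 1e+06 and keep no read depth, so depth is unknown and no counting interval can be given. Values were analysed as log2(TPM + 1), with a pseudocount of 1, so fold changes understate those of low rows. The 13108 rows that reached 1 TPM in 7 or more libraries entered 1 limma fit of all 4 groups (limma 3.58.1 with trend, R 4.3.3; Python 3.11.15), two-sided, with Benjamini-Hochberg adjustment over all rows at 0.05. The fit was tested on simulated data. Replicates were numbered in accession order. The labels tie no legs to mice and leave it unsaid whether each library is a separate mouse, so p-values here reflect the spread among libraries, which may be technical.

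The members and the lists were chosen with earlier results of these data known. Named were the 5 members with the highest control mean, the 8 with the lowest ratio of WT_VEH_DEN to control, the 5 with the largest rise in each intervention, the 5 lowest and the 5 highest in mean recovery, the 3 with the smallest p between the interventions, and the nearest rows at each limit. All 8 of the lowest ratio were members raised in WT_VEH_CON replicate 4. The lowest of the 147 members that meet the rule without any single library (M22, M44, M116, M72, M132, M8, M62, M165; M114), M12, M34, M36 and the other members listed by recovery class were therefore named after their values were seen. Alternatives were other pseudocounts, filters, scalings, thresholds, a title number term, fits of 2 groups and leaving out libraries.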

Additional observations from a re-analysis of the deposited data

Results flagged for a closer look

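In 156 combinations of a group and a measure, the highest or lowest library was compared with the rest by Dixon's test, and 31 stood apart. Chance sets apart about 1 in 20 groups, but the 31 are not set against that share, because 8 of them are members described for being raised in WT_VEH_CON replicate 4 and 8 more are low values of the same members in other groups. The 8 in WT_VEH_CON replicate 4 were M122 at 191 TPM, M176 at 82.4, M146 at 109.8, M133 at 147, M163 at 91.5, M110 at 229, M85 at 389 and M128 at 167. In iRKO_VEH_DEN replicate 7, 5 of the same members stood above the other iRKO libraries at low levels, M176 at 1.12 TPM, M146 at 1.10, M133 at 0.969, M163 at 1.46 and M85 at 4.26. A further 3 were single low values of such members, M176 at 0.215 TPM in WT_NVS-HD1_DEN replicate 8, M146 at 0.0721 in WT_NVS-HD1_DEN replicate 9 and M133 at 0.0745 in WT_VEH_DEN replicate 2.

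WT_VEH_CON replicate 3 stood apart in 5 measures. The summed level of the members was 19488 TPM, the lowest in control, their median recovery was 88.3%, and the 20 most abundant rows held 44.1% of TPM, the highest; M4 was highest there at 890 TPM and M62 lowest at 61.6 TPM. WT_VEH_DEN replicate 5 was highest for M3 at 278 TPM, M124 at 7.55 and M141 at 6.44.

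The other libraries that stood apart did so for 1 member each. M149 reached 42.8 TPM in WT_VEH_CON replicate 2 and 39.1 in WT_NVS-HD1_DEN replicate 10, and was lowest at 10.5 in iRKO_VEH_DEN replicate 4. M86 was highest at 19.2 TPM in iRKO_VEH_DEN replicate 2 and M139 at 13.7 in WT_NVS-HD1_DEN replicate 7. M114 (row 19150), with 28.1 ± 15.8 TPM in control (SD, n = 8), was highest at 22.5 in WT_VEH_DEN replicate 6 and at 12.5 in WT_NVS-HD1_DEN replicate 4.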

How the results depend on the processing

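No paired analysis was possible because the labels give no replicate numbers and do not tie legs to mice. Members called higher than WT_VEH_DEN numbered 146 to 151 for NVS-HD1 and 147 to 154 for the knockout when each library was left out, and members lower than control 125 to 136 and 107 to 123. Between the interventions the count was 0, or 1 without WT_VEH_DEN replicate 6 or iRKO replicate 3, 4, 5 or 7. The title number term gave 56 and 27. With WT_VEH_DEN limited to 1/4 of control there were 114 members, with 93 and 95 called above WT_VEH_DEN and 84 and 75 below control. With a limit of 1/2 there were 394, with 308 and 317 above and 294 and 261 below. The number of members was 161 without WT_VEH_CON replicate 4 and up to 190 without replicate 3; it was 188 by medians, 234 after median-of-ratios scaling and 240 without the 20 most abundant rows. Recovery computed on TPM was 39.0% and 47.7%; leaving out single libraries gave 57.2% to 59.8% and 61.9% to 68.9%.

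For the log2 differences of named members, counted over all alternatives, 23 values changed sign, 30 lost and 14 gained a call, and 2579 did neither. The title number term alone gave 27 of the 30 lost calls and 9 of the 23 sign changes, among 63 values. Under the title number term the sign changed for M10 (0.13 with NVS-HD1, 0.27 in the knockout), M142 (0.045 and 0.21), M107 (0.12 and 0.071), M114 (1.20 with NVS-HD1), M110 (-0.16 in the knockout) and M139 (-0.018 in the knockout). Without iRKO replicates 3, 7 and 8 it changed in the knockout for M10 (0.0050) and M139 (-0.027), and without the 20 most abundant rows for M107 (0.11 and 0.0062). Leaving out single libraries gave -0.082 to 0.066 for M107 with NVS-HD1 and -0.028 to 0.13 for M139 in the knockout. The cause was not tested. By limma none of the values that changed sign was called under the alternative. TPM keep no depth, so the counting error of low rows such as M122 is unknown.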

Other observations

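Members that neighbour each other in the table were counted, since 11 of the 179 stood directly beside another member, in 6 adjacent pairs. M129 (row 9703) and M36 (row 9704) recovered most or all of their log2 loss, at 97.3% and 82.4% with NVS-HD1 and 107% and 93.9% in the knockout. Their correlation over the 19 intervention libraries, around the group means, was 0.95. M8 and M106 (row 1372) had a correlation of 0.88, with recoveries of 52.8% and 68.3% with NVS-HD1. M116 and M50 (row 18152) had one of 0.71, with 47.6% and 95.7%. M72 and M58 both recovered little, 13.5% and 12.1% with NVS-HD1, at a correlation of 0.29. The remaining 2 pairs, M134 (row 16098), M128 (row 16099) and M110 (row 16100), were members raised in WT_VEH_CON replicate 4. Whether neighbouring rows belong to the same or related genes was not tested, because the symbols do not match the values.

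Over 4 equal stretches of the table, in row order, 44, 56, 45 and 34 members were found, where 2033, 2016, 1917 and 907 rows had a control mean of 10 to under 1000 TPM.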
